A study of Mus musculus with 4 samples.

Results

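Podocytes are the epithelial cells that cover the outside of the glomerular capillaries. Here they were the cluster of kidney nuclei with the highest average expression of *Nphs1*, which encodes nephrin. The cluster was therefore chosen by *Nphs1* itself, and it was cluster 17, 1 of 23 clusters and 4 of the 92 columns of the expression table. *Nphs1* averaged 18.4 there over 4 mice, against 1.61 in the next cluster (cluster 21) and 0.195 in the one after it (cluster 6), which describes the choice and tests nothing.

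Nuclei came from the kidney cortex of 4 male mice of mixed strain, 1 mouse for each condition. The control mice carried the TRE-hKLF6 transgene alone, and the hKLF6OE mice carried it together with CAG-rtTA, so that doxycycline could switch on human *KLF6* throughout the body. All were fed a doxycycline diet of 200 mg/kg from 1 week before injury. In each genotype, 1 mouse was left uninjured and 1 received a single injection of 2 mg/kg aristolochic acid I (AAI), a plant toxin that damages DNA, with collection 24 hours later. The age of these mice was not given in the sources used here. CAG is a promoter active in nearly all tissues, so the transgene was not aimed at podocytes, and the human transcript was not analysed here. With mixed strain and 1 mouse per condition, differences of genetic background or between single animals cannot be told apart from genotype or AAI, no spread between mice exists, and no test between conditions was made. Clusters had been built from the same genes, so the identity of the cluster was not tested either.

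Each value averages the expression of 1 gene in 1 mouse across the nuclei assigned to a cluster, on a scale on which all genes of a column sum to 10000. The number of nuclei and counts behind a column is not known, so no counting interval is given. As a guide to depth, 44.8% and 46.1% of genes were listed at 0 in the podocyte columns of control and hKLF6OE. With AAI, the shares were 38.2% in control_AAI and 34.6% in hKLF6OE_AAI. The other clusters ranged from 15.1% to 63.4%. Both podocyte columns with AAI thus had fewer genes at 0, and the part of depth in the comparisons was not tested. Reads in introns were counted, which raises long genes, so levels of different genes are compared only per length, as average expression per 100 kb of genomic span. Differences are given as log2(value + 1), which understates changes of low genes, and are counted from 0.5 among genes whose larger value was at least 0.5. A low gene can therefore pass through 1 high value, so the list members that pass can differ between comparisons.

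Podocytes send out interlocking foot processes that are bridged by the slit diaphragm. Nephrin and its relatives span this gap, the MAGI and ZO-1 scaffolds hold them at the membrane, and an actin skeleton organized by synaptopodin and actinin keeps the processes in shape. Transcription factors such as WT1 and LMX1B maintain this state in a cell that hardly divides. Loss of the slit diaphragm proteins causes nephrotic syndrome.

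The bases before the start site are shown for 4 genes on which the results turn: *Ptpro*, a leading gene of podocyte identity, *Dach1*, a podocyte transcription factor that was higher with AAI, *Nsf*, which had the largest shared difference upward with AAI, and *Ackr3*, which was higher with both AAI and hKLF6OE. They are taken from RefSeq on GRCm38.p6 and hold the 250 bases before the start, 5′ to 3′ on the strand of the gene, and none overlaps an annotated exon. The windows are chr6:137252049-137252298 on the plus strand, chr14:98169766-98170015 on the minus strand, chr11:103954057-103954306 on the minus strand and chr1:90203730-90203979 on the plus strand. Capitals mark the only match to a searched motif.
Ptpro: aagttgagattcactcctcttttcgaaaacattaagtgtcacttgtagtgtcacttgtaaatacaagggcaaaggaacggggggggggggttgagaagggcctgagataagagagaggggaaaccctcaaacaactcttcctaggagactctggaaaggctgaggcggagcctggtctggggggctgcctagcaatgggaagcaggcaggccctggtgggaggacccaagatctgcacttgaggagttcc
Dach1: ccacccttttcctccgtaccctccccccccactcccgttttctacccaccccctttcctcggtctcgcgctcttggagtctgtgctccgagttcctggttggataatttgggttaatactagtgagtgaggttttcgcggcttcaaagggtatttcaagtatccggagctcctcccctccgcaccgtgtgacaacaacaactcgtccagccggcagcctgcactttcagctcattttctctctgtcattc
Nsf: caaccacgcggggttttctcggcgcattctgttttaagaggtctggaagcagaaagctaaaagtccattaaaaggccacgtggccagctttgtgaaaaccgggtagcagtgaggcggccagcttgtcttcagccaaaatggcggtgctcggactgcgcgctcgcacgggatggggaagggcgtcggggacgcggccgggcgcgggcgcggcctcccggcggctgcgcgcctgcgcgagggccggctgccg
Ackr3: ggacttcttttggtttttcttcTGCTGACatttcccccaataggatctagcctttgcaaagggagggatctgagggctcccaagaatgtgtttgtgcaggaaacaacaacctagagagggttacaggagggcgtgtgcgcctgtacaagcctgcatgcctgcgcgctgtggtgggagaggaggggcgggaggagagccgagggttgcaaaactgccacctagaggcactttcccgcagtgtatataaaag

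The motifs were searched on both strands of the 250 bases in 80 podocyte-high genes (defined below) with a RefSeq window, beside the 27025 genes of the promoter table. GCGTGGG, the kind of site bound by WT1, was held by 8.75% of podocyte-high genes and 4.94% of all genes, but by 9.005% of the 1899 genes at or above 0.5 in podocytes of all mice. TGCTGAC, a MAF-type site, was held by 3.75% of podocyte-high, 4.002% of expressed and 4.31% of all genes. TAATTA, a homeodomain site, was held by 3.75%, 3.74% and 5.65%, and the forkhead site GTAAACA by 2.50%, 3.11% and 3.54%. The E-boxes CATNTG and CANCTG, which share the form CATCTG, were held by 30.0% and 42.5% of podocyte-high genes, by 25.8% and 40.8% of expressed genes and by 38.2% and 48.2% of all genes. For both E-boxes the podocyte-high share thus lay above that of expressed genes and below that of all genes, and none of these shares was tested. The single match among the windows above was TGCTGAC before *Ackr3*, beginning 228 bases before the start.

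To describe podocyte identity, a gene was called podocyte-high when it lay above the highest of the other 22 clusters by at least 0.5 in each of the 4 mice, with a value of at least 0.5 in each. Of 2420 genes that reached this value in all 4 mice, 110 were podocyte-high (4.55%), and 106 of them are protein coding. The smallest differences inside the limit were those of *Tcf21* (0.50) and *Shisa3* (0.51), and the first gene outside it was *Coro2b* (0.499). Together the 110 genes made up 18.2% of the control column, 21.3% of control_AAI, 15.1% of hKLF6OE and 18.6% of hKLF6OE_AAI. Their sum in the highest other cluster was 1.30% to 4.43%. The median gene span of the 110 genes was 120.3 kb, against 76.9 kb for all genes that reached the value.

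Several leading genes belonged to the slit diaphragm list, although *Sgip1* and *Nebl*, which do not, ranked 3 and 4, and *Podxl* ranked 19. *Magi2*, a scaffold that binds nephrin, stood first, with 619 in control, 804 in control_AAI, 479.7 in hKLF6OE and 565 in hKLF6OE_AAI. Its mean was 10.9-fold that of the next cluster. *Ptpro*, a receptor tyrosine phosphatase of the foot process membrane, was at 34.6, 44.1, 27.6 and 25.0 in the same order of mice. *Nphs1* was at 19.6, 16.6, 17.1 and 20.2. *Podxl*, the sialomucin that keeps foot processes apart, was at 22.2, 24.6, 26.9 and 22.9. It was the least restricted of these 4, since its mean in cluster 10 was 6.28, a cluster that also had the highest endothelial marker sum.

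Of 21 slit diaphragm genes in the table, 14 had their highest mean in podocytes and 8 were podocyte-high, which also include *Plce1*, *Tjp1* and *Nck2*. *Magi1* was the reverse of its paralog: its podocyte mean of 1.85 was the lowest of the 23 clusters, and its highest was 23.9 in cluster 18. *Kirrel3* and *Trpc6* were near 0 in podocytes, with means of 0.076 and 0.085. *Kirrel*, which encodes the nephrin partner NEPH1, averaged 4.08 in podocytes and 3.155 in cluster 21. *Cd2ap*, an adaptor of nephrin and actin, averaged 6.30 with 3.69 in cluster 18, and *Fat1*, a giant cadherin, averaged 3.07. *Crb2*, a polarity protein, averaged 0.856, and its span overlaps the oppositely oriented *Dennd1a* (5.33).

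Per length, the order of the genes changed. *Cdkn1c*, the cell cycle inhibitor that marks resting podocytes, came to 108 per 100 kb and *Vegfa*, the growth factor for the glomerular endothelium, to 92.7. *Nphs1* lay at 63.6, *Sema3g* at 54.9, *Podxl* at 54.3 and *Magi2* at 41.7. Other podocyte-high genes lay between these, such as *Tcf21* at 57.8. *Ptpro* came to 15.6 and *Plce1* to 6.53. *Magi2*, the first gene by value, thus lay below all of these except *Ptpro* and *Plce1* on this scale.

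**Figure D1:**
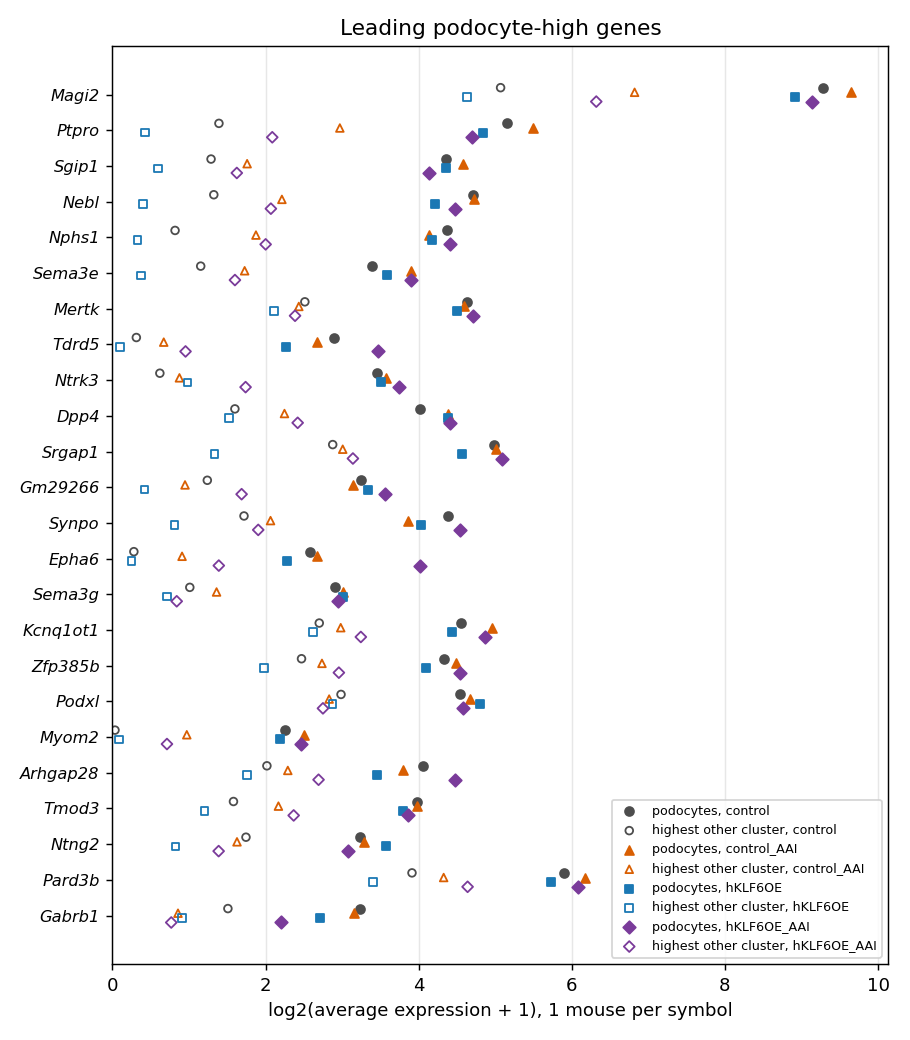
Leading podocyte-high genes, ordered by their smallest difference over the 4 mice, 1 row per gene, as log2(average expression + 1). Filled symbols are podocytes of the 4 mice, open symbols the highest other cluster of the same mouse, and in every row the filled symbols lie to the right of the open symbols of their own mouse, from 2.82 for *Magi2* to 1.44 for *Gabrb1* at the closest pair.

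Outside the slit diaphragm, the 25 leading genes fell into a few groups. Cytoskeletal genes were *Nebl*, which encodes the actin-binding protein nebulette (25.1, 25.4, 17.5 and 21.2), *Synpo*, which encodes synaptopodin (19.8, 13.5, 15.4 and 22.2), *Tmod3*, *Myom2* and the GTPase-activating proteins *Srgap1* and *Arhgap28*. Guidance cues and receptors were *Sema3e* (9.48, 13.9, 10.96 and 13.9), *Sema3g* (6.53, 7.10, 7.07 and 6.74), *Epha6*, *Ntng2* and *Ntrk3*. These are gene families best known from axon growth. Other surface proteins were *Mertk*, a receptor for dying cells, with 21.5 to 25.3, the peptidase *Dpp4* with 15.2 to 20.2, and *Gabrb1*, a subunit of the GABA-A receptor, with 3.62 to 8.44. The remaining genes were *Sgip1*, *Tdrd5*, *Zfp385b*, *Pard3b*, the noncoding *Gm29266*, and *Kcnq1ot1*, which averaged 25.4. *Kcnq1ot1* overlaps *Kcnq1* (mean 2.06) on the opposite strand. How reads were assigned by strand is not stated in the sources used here.

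The median ratio of the highest to the lowest mouse was 1.51 for the 110 genes and 1.64 for all 2420 genes that reached 0.5 in each mouse, and 22.7% and 24.3% exceeded 2. The rule asks for a high value in each mouse, which favors low ratios. Of the 110, *Plod2* and *Epha6* exceeded 3. *Epha6* was at 4.99, 5.35 and 3.84 in 3 mice and at 15.2 in hKLF6OE_AAI, so that 1 mouse stood apart. *Plod2*, a lysyl hydroxylase of collagen, was at 4.60, 6.02, 2.21 and 9.10.

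For 59 of the 110 genes the next cluster was 21, LH-DL in the order of the authors' cluster names. The 7 parietal epithelial markers had their highest sum in this cluster (29.1). Of these, *Ncam1* (7.16), *Pax8* (6.14) and *Cdh6* (5.00) had their highest means there. The other members are not given, and the identity of cluster 21 was not tested. Of 8 podocyte markers, 7 stood in cluster 21 at 6.27% to 12.2% of their podocyte mean, and *Wt1* stood at 36.2%. The share moved between mice. *Magi2* in cluster 21 was 32.6, 112, 2.76 and 78.9 in control, control_AAI, hKLF6OE and hKLF6OE_AAI, and *Nphs1* was 0.763, 2.67, 0 and 3.00. The nuclei behind these values were not identified here, and their part in the next-cluster values was not tested.

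Transcription factors gave the same picture with fewer genes: 5 of 15 were podocyte-high. *Wt1* was at 13.1, 11.43, 12.6 and 11.41. Its antisense neighbor *Wt1os* was also podocyte-high, and its span ends at chr2:105126510, before that of *Wt1* begins at chr2:105126529. *Lmx1b* was at 3.46, 3.68, 2.93 and 3.13, and *Tcf21* at 1.46, 1.80, 2.44 and 0.988. *Foxd1* averaged 1.44. *Foxc1* averaged 0.519, below the 0.801 of cluster 21. *Dach1* averaged 67.1, above the 28.8 of cluster 9. *Tead1*, *Zhx2*, *Zhx3*, *Ldb1* and *Nr3c1* were higher elsewhere, as were the podocyte-linked *Klf15* (0.264) and *Klf4* (0.015).

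**Figure D2:**
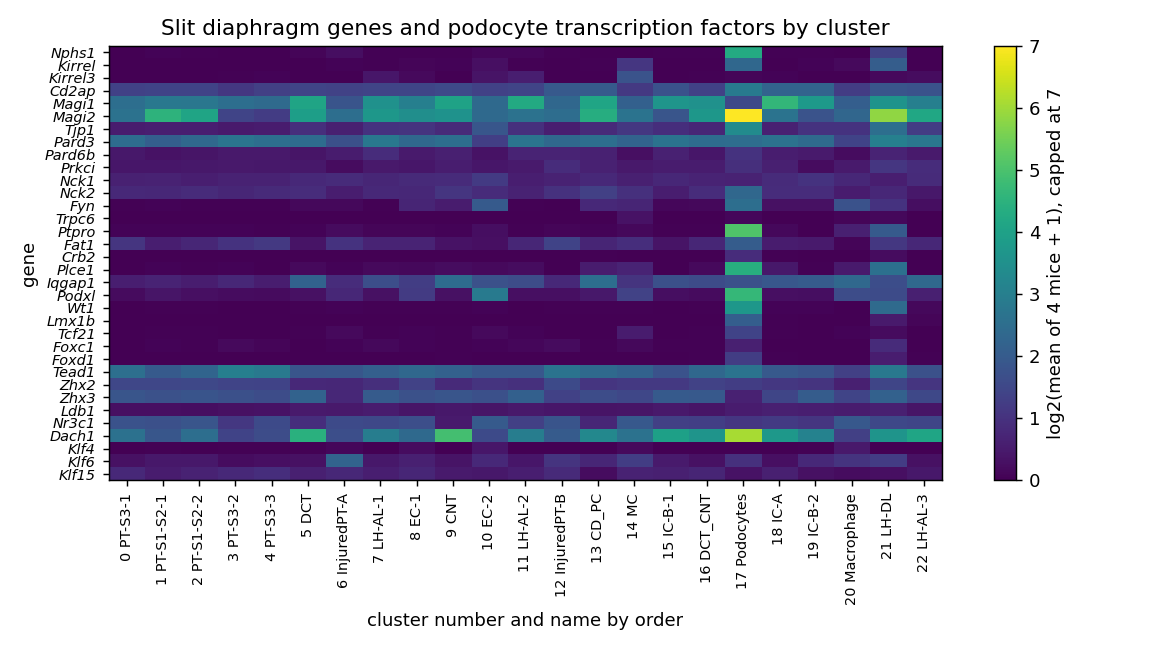
Mean of the 4 mice as log2(mean + 1) for slit diaphragm genes and podocyte transcription factors (rows) in the 23 clusters (columns, named by order), with the color scale capped at 7. The podocyte column is the brightest for *Nphs1*, *Ptpro*, *Podxl*, *Wt1* and *Dach1*, with a fainter column at cluster 21, and it is dark for *Magi1*.

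Other structural lists were less restricted to podocytes. Over the 2420 genes at or above 0.5 in all mice, 4.55% were podocyte-high, and no list was tested against this share. Of 32 cytoskeletal genes, 7 were podocyte-high, among them *Myo1e* (mean 13.9), *Kank1* (10.3) and *Rhpn1* (2.87), and *Arhgap24* averaged 12.9 with 14.96 in cluster 14. None of 19 adhesion and basement membrane genes was podocyte-high. The chains of the mature membrane were shared with tubules, as *Col4a3* averaged 18.2 with 13.3 in cluster 22 and *Col4a4* 13.6 with 13.9 in cluster 9. *Col4a5* averaged 4.95, while *Col4a1* and *Col4a2* averaged 0.175 and 0.165. *Npnt*, which encodes the mesangial attachment ligand nephronectin, averaged 5.51, and *Dag1* 3.92. Of 23 ligands and surface proteins, 5 were podocyte-high, and *Robo2*, a receptor that binds nephrin through NCK, averaged 40.9 with 44.8 in cluster 22. Of 64 genes of inherited nephrotic syndrome, 13 were podocyte-high and 23 had their highest mean in podocytes. *Cdkn1c* was the podocyte-high gene among 16 cell cycle genes, at 2.54, 3.38, 3.06 and 2.70, whereas *Mki67*, *Ccnb1*, *Ccne1*, *Cdkn2a* and *Cdkn2b* were listed at 0 in all 4 mice.

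Other genes were lower in podocytes than elsewhere without being absent. By a rule added after the data were seen, 19 of the 900 genes that averaged at least 2 in the other clusters (2.11%) were lowest of the 23 clusters in each mouse. Among them, *Ank3*, an anchor of membrane proteins, averaged 2.65 in podocytes and 24.6 in the other clusters. *Pkhd1*, the gene of recessive polycystic kidney disease, averaged 2.79 against 21.3, and *Cobll1* 1.15 against 7.93.

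Markers of other cell types were checked in the podocyte columns. Of 12 proximal tubule markers all were above 0 and their sum was 127 in control, 90.9 in control_AAI, 166 in hKLF6OE and 57.5 in hKLF6OE_AAI. *Kap*, an abundant proximal tubule transcript, made up most of it at 73.7, 50.6, 111 and 32.8. The sum of the 13 mitochondrially encoded genes moved alongside, at 182, 99.4, 268 and 73.1. In contrast, the 7 mesangial markers summed to 0.368 to 0.772, the 6 macrophage markers to 0.146 to 0.731 with *C1qa*, *C1qb* and *Cd68* listed at 0, and the 4 collecting duct markers to 0.220 to 0.534 with *Slc4a1* listed at 0. The 10 endothelial markers summed to 4.97 to 5.92, of which *Meis2* gave 4.36 to 4.61, and the 7 parietal epithelial markers to 1.80 to 2.75. The 4 thick ascending limb markers, with *Cldn16* listed at 0, summed to 6.95 to 8.19, and the 4 distal tubule markers to 1.65 to 3.98. Transcripts of the proximal tubule were thus present in the podocyte columns and were lower in both mice with AAI, and their part in the comparisons below was not tested.

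AAI was compared with no injury in each genotype. In control podocytes, 190 of 4150 genes were higher (4.58%) and 233 lower (5.61%). In hKLF6OE podocytes, 302 of 4283 were higher (7.05%) and 478 lower (11.16%). The pairs share no mouse. Of 3573 genes that could be judged in both, 23 were higher in both (0.644%), 53 lower in both (1.48%) and 23 went in opposite directions (0.644%). Thus as many genes disagreed as were higher in both.

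*Nsf* had the largest higher difference shared by both genotypes. It encodes the ATPase that takes apart SNARE complexes after membrane fusion. Its value was 0.753 in control and 8.18 in control_AAI, and 1.95 in hKLF6OE and 11.8 in hKLF6OE_AAI, so that both mice with AAI lay above both without. The differences were 2.39 and 2.11. In the other 22 clusters the median difference was 0.14 and 0.12 and the largest 0.85 and 0.75, and podocytes ranked first of 23 in both genotypes. *Nsf* lies at chr11:103821782-103954056 on the minus strand (GRCm38), and outside podocytes its value never exceeded 2.46 in any cluster or mouse.

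*Nell2* was the opposite case. It encodes a secreted protein with EGF-like repeats. Its value was 7.14 in control and 1.39 in control_AAI, and 6.93 in hKLF6OE and 0.613 in hKLF6OE_AAI, with differences of -1.77 and -2.30. Outside podocytes *Nell2* did not exceed 0.406 in any cluster. Podocytes had the highest average of the 23 clusters in each mouse, though in hKLF6OE_AAI cluster 21 was at 0.325 beside 0.613, and they ranked last in both differences. The gene lies at chr15:95075230-95528559 on the minus strand.

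**Figure D3:**
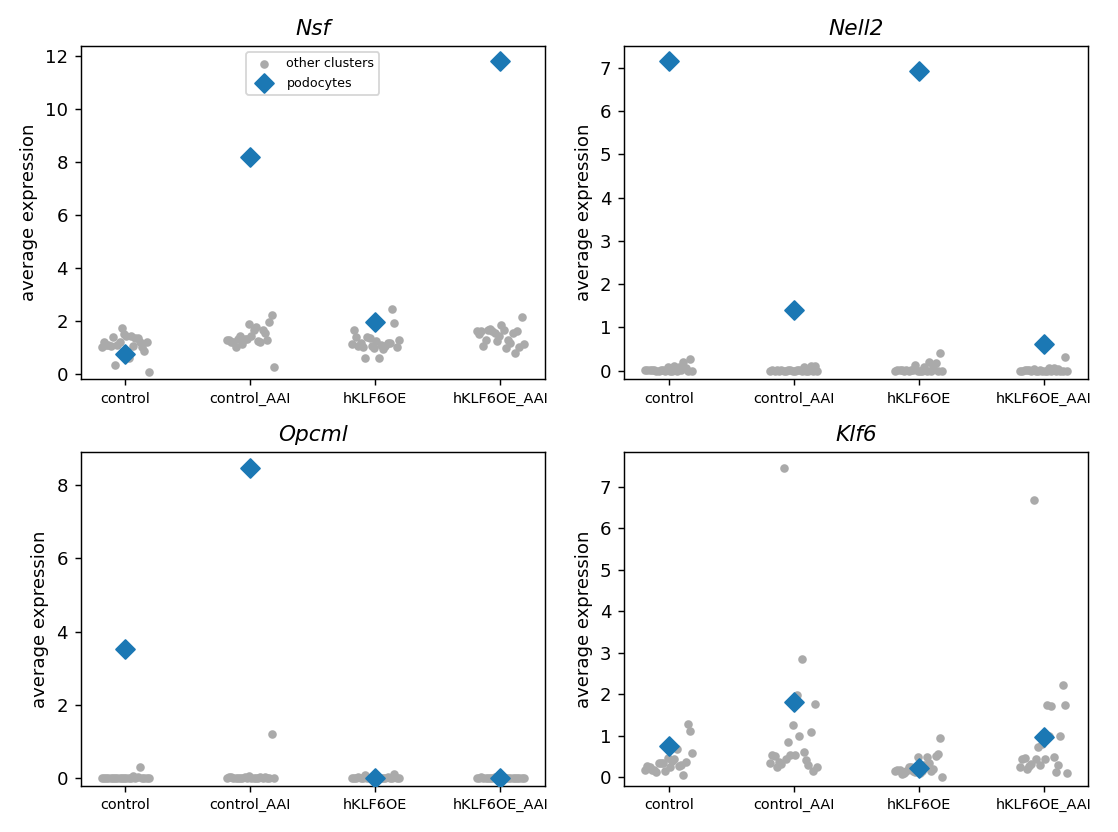
Average expression of *Nsf*, *Nell2*, *Opcml* and *Klf6* in each mouse, with podocytes as blue diamonds and the other 22 clusters as gray points, spread sideways in cluster order. Podocyte *Nsf* lies at 8.18 and 11.8 in the mice with AAI and near the gray points without, *Nell2* shows the reverse, podocyte *Opcml* is listed at 0 in both hKLF6OE mice, and *Klf6* lies within the range of the other clusters.

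The other leading genes higher with AAI had smaller differences. *Sik1*, a salt-inducible kinase, was at 0.165 and 1.20 in control and at 0.517 and 2.21 in hKLF6OE. *Klf6* itself was at 0.754 and 1.83 in control and at 0.216 and 0.974 in hKLF6OE, and podocytes ranked 4 and 5 of 23 in these differences (0.69 and 0.70), far below the largest of another cluster (2.64 and 2.62). *Junb*, an AP-1 factor, was at 0.454 and 1.26, and at 0.150 and 2.86. *Dach1* was at 56.8 and 92.7, and at 47.3 and 71.7, with differences of 0.70 and 0.59 beside medians of 0.34 and 0.45 in the other clusters. *Psd3*, an exchange factor for ARF6, *Rock2* and *Map4k4*, both kinases of the cytoskeleton, *Sh3bgrl*, and *Ackr3*, a scavenger receptor for the chemokine CXCL12, completed the 10. *Ackr3* was at 0.315 and 1.89, and at 3.14 and 5.21.

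The genes lower with AAI had a different make-up. Of the 53, 45 had their highest mean in a proximal tubule cluster, 2 in podocytes (*Nell2* and *Mocs2*), and 7 were mitochondrially encoded. Among all 3573 genes judged, the shares were 33.4% for proximal tubule and 12.1% for podocytes. These classes were read from the same 4 mice as the calls. Of the 23 higher genes, 4 were highest in proximal tubule and 6 in podocytes. Leading examples were *G6pc*, the last enzyme of glucose release (3.09 and 0.848, and 1.72 and 0.160), *mt-Nd4* (13.5 and 5.55, and 21.6 and 4.302), and *mt-Atp6* (31.4 and 13.99, and 46.1 and 8.13). *mt-Cytb*, *mt-Co3*, *Cndp2* and *Gm42397* were also among the 10. *Ndrg1*, at 7.37 and 2.66, and at 5.78 and 2.14, was lower in all other clusters too, with medians of -1.03 and -1.25 against -1.19 and -1.11 in podocytes. Of the 12 proximal tubule markers, 3 were lower in control and 8 in hKLF6OE (medians -0.37 and -0.67), and of 11 mitochondrially encoded genes that passed, 7 and 11 (medians -0.65 and -1.48). Their part in these counts was not tested.

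As an alternative, the median difference of the other 22 clusters was subtracted from that of podocytes. Relative to the other clusters, 16 genes were then higher and 9 lower in both genotypes. The 16 include *Wwox*, at 5.38 and 5.30 in control and 4.90 and 4.27 in hKLF6OE, and *Park2*, at 5.18 and 5.19, and at 5.78 and 5.56, which were not higher in podocytes themselves by the threshold. Of the 23 higher genes 10 remained, including *Nsf*, *Ackr3*, *Psd3*, *Sik1*, *Map4k4* and *Sh3bgrl*, and of the 53 lower genes 4 remained, *Nell2*, *Ldhb*, *Mpp1* and *Olfr1033*. *Klf6*, *Dach1* and *Junb* were no longer counted.

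**Figure D4:**
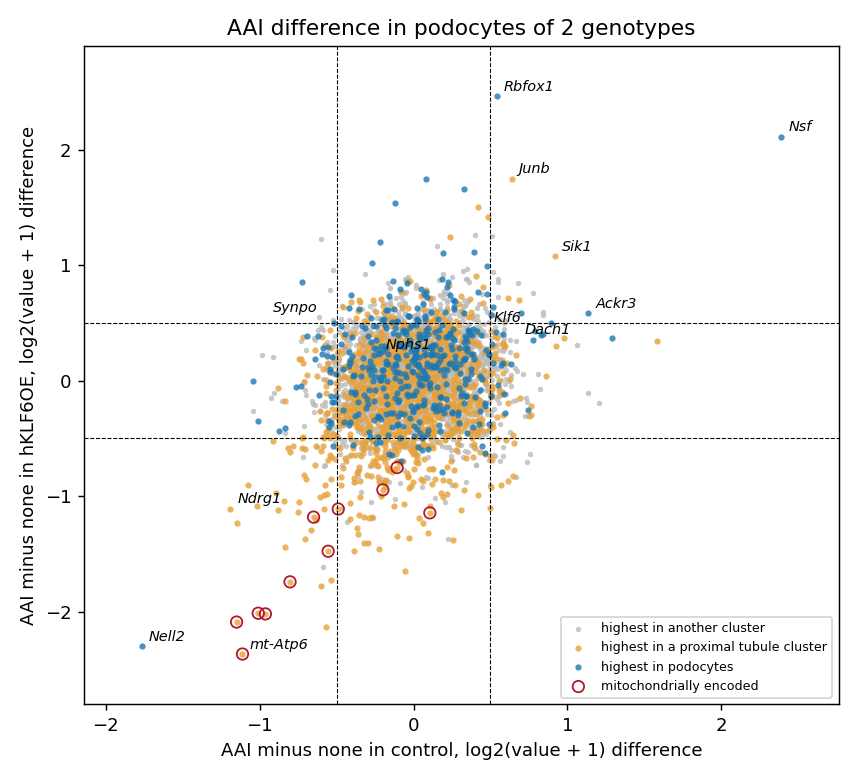
AAI difference in control podocytes (x axis) against that in hKLF6OE podocytes (y axis), as differences of log2(value + 1), for the 3573 genes judged in both, colored by the class of cluster in which each gene is highest. Dashed lines mark 0.5, *Nsf* lies farthest to the upper right and *Nell2* farthest to the left, and the mitochondrially encoded genes (red rings) run down the lower left.

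Over all genes judged, 2.13% were counted in the same direction in both genotypes, and of 19 slit diaphragm genes that passed the filter none was, a list too short to tell apart from that share. In control podocytes none was counted, and in hKLF6OE podocytes 2 were higher, among them *Kirrel* (0.66). The medians of the list were 0.07 and 0.23, beside -0.00 and -0.02 over all genes. The 8 podocyte markers had 1 lower in control and 2 higher in hKLF6OE (medians 0.19 and 0.05). Of the transcription factors, *Klf6* and *Dach1* were higher in both (medians 0.18 and 0.11). *Nr3c1*, the glucocorticoid receptor, was higher in control alone (0.58), *Foxc1* (0.64) and *Tead1* (0.70) were higher in hKLF6OE alone, and *Tcf21* was lower there (-0.79). Such differences between the genotypes were not tested. Of the KLF family *Klf6* alone was counted, with medians of 0.01 and -0.19. As a background, 4.58% of all genes judged were higher and 5.61% lower in control, and 7.05% and 11.16% in hKLF6OE. No list was tested against these shares. Of the cytoskeletal genes, 3 were higher and 2 lower of 27 in control and 3 higher and 1 lower of 28 in hKLF6OE. None was shared, and *Synpo* went in opposite directions (medians 0.01 and 0.18). The adhesion list had 1 higher of 13 and 2 higher of 12 (medians -0.05 and 0.26). The ligand list had 3 higher of 16 and 3 higher of 18 (medians 0.08 and 0.21). These ligand genes included *Sema3e* (0.51) and *Thsd7a* (0.52) in control and *Vegfa* (0.73) and *Robo2* (0.57) in hKLF6OE. Of the genes of inherited nephrotic syndrome, 1 was higher and 1 lower of 38 in control and 7 were higher and 1 lower of 42 in hKLF6OE. None was counted in both (medians 0.11 and 0.22).

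Targets of p53, the factor that responds to DNA damage, were mostly low in podocytes. Their sum was 10.3 in control, 15.1 in control_AAI, 10.2 in hKLF6OE and 16.2 in hKLF6OE_AAI, while the highest other cluster reached 76.8 and 75.5 in the mice with AAI. *Cdkn1a*, the cell cycle inhibitor p21, was listed at 0 without AAI and was at 0.401 and 0.388 with it. *Mdm2* was at 0.775 and 1.30, and at 0.558 and 1.35, and *Btg2* at 0.594 and 1.23, and at 0.350 and 2.60. *Zmat3* was listed at 0 without AAI and was at 0.285 and 0.244 with it. Podocyte columns with AAI also had fewer genes listed at 0, and the part of depth in these values was not tested. Of 13 and 16 members that passed the filter, 3 and 5 were higher and 0 and 2 lower, with medians of 0.28 and 0.40 and none counted in both genotypes. After subtraction of the other clusters the medians were -0.17 and -0.17, so podocytes lay below the median cluster. With no minimum value, a count added after the data were seen, 23 of 39 members were above 0 and 14 below in control, and 28 above and 10 below in hKLF6OE. The medians of all 39 members were then 0.03 and 0.12. The members named above were all higher with AAI, unlike the 2 counted lower in hKLF6OE.

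Immediate early and stress genes were uneven. In control podocytes *Junb* alone of 7 was higher (median 0.03), and in hKLF6OE podocytes 6 of 13 were higher and 1 lower (median 0.50). The 7 and 13 are different sets, which passed on the larger of the 2 values. With no minimum value, the medians of all 30 members were 0.03 and 0.08. *Nr4a1*, an orphan nuclear receptor induced within hours of a stimulus, was at 0.266 and 0.354 in control and at 0.084 and 2.24 in hKLF6OE, and *Egr1* at 0.167 and 0.487, and at 0 and 0.946. *Hspa8*, a heat shock cognate, was at 2.90 and 2.33, and at 5.34 and 1.30. Of the injury and dedifferentiation genes, *Lcn2*, *Acta2*, *Snai1*, *Snai2* and *Twist1* were listed at 0 in all 4 podocyte columns, and *Cd44* and *Des* did not exceed 0.014. Of those that passed, 4 of 7 were higher in control (median 0.51), and 1 of 6 was higher and 2 lower in hKLF6OE (median -0.00). With no minimum value, the medians of all 31 members were 0.01 and 0, and 10 and 9 members had a difference of 0. *Spp1* moved in opposite directions, and its highest cluster mean was 25.5, in cluster 21. *Ctgf* was at 0.905 and 1.16, and at 1.21 and 1.48. The genes of AAI uptake and metabolism were low, with 3 passing and 1 lower in hKLF6OE (medians -0.28 and -0.41), and *Slc22a6*, an organic anion transporter that takes up AAI, was at 1.44 and 0.922, and at 1.28 and 0.718.

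The largest single differences included *Rbfox1*, a neuronal splicing factor with its highest mean in podocytes. It was at 21.6 in control, 31.8 in control_AAI and 25.9 in hKLF6OE_AAI, and at 3.88 in uninjured hKLF6OE, so that 1 mouse stood apart in 2 comparisons. *Chd9*, which was higher with AAI in control (2.37 and 9.09), was higher in other clusters too, by a median of 1.82 against 1.58 in podocytes. *Yaf2* was at 0.208 and 1.95 in control, and *Cadm2* at 1.502 and 0.105. *Miox*, an enzyme of proximal tubule, was at 6.59 and 0.731 in hKLF6OE.

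Genotype was compared within each treatment. Without injury, 402 of 4437 genes were higher in hKLF6OE than in control (9.06%) and 347 lower (7.82%). With AAI, 134 of 3947 were higher (3.39%) and 169 lower (4.28%). Of 3524 genes judged in both, 20 were higher in both (0.568%), 31 lower in both (0.88%) and 37 opposite (1.05%), so that opposite calls outnumbered each shared direction. Of the 37 opposite genes, 22 had their highest mean in a proximal tubule cluster and 4 in podocytes. Among all genes judged, these shares were 32.5% and 12.6%. These pairs use the same mice as the AAI pairs and are not independent of them.

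*Klf6*, the mouse counterpart of the transgene, was lower in hKLF6OE in both treatments, with differences of -0.53 and -0.52. At values of 0.216 to 1.83 this is a small level, and with a minimum value of 2 it would not have been judged. The other clusters had medians of -0.12 and -0.09. *Klf12* was lower with AAI alone (-0.65) and *Klf8* higher without injury alone (0.57). The medians of the KLF family were -0.14 and -0.13.

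Many genes lower in hKLF6OE had their highest level in podocytes. Of the 31, 16 had their highest mean in podocytes, against 12.6% of all genes judged, and 4 were podocyte-high (*Gabrb1*, *Thsd7a*, *Atp8b1* and *Rab3b*). The highest cluster was read from the same 4 mice as the calls. A high value in control podocytes therefore favors both, and the share is a description that was not tested. *Opcml*, counted among the 16, ranked 12 and 8 of 23 in the hKLF6OE and hKLF6OE_AAI mice. *Opcml*, which encodes an adhesion molecule of the IgLON family, was at 3.53 in control and 8.47 in control_AAI and was listed at 0 in both hKLF6OE mice. No other cluster exceeded 1.22 in any mouse. It lies at chr9:27790775-28925410 on the plus strand. *Cblb*, a ubiquitin ligase, was at 6.38 and 9.70 in control and control_AAI and at 2.54 and 3.73 in the matching hKLF6OE mice. *Aff3* was at 5.14 and 5.16 against 2.55 and 1.71, and *Gm3772* at 2.58 and 1.68 against 0.559 and 0.197. *Thsd7a*, an antigen in membranous nephropathy, was at 36.7 and 53.01 against 23.3 and 26.0. *Scel*, *Cacnb2*, *Trabd2b*, *Lingo2*, *Rims2* and *Bmpr1b*, a BMP receptor, completed the 10. For *Opcml*, *Cblb* and *Gm3772* the median difference of the other clusters lay between -0.03 and 0.00, and podocytes ranked last of 23 in both treatments. *Gm3772* did not exceed 0.144 outside podocytes, so the other clusters had little room to differ. Of the 10, *Trabd2b* was the exception, since it was lower in every other cluster without injury (median -0.92 against -0.96 in podocytes), and podocytes ranked 13 and 19.

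The 20 genes higher in hKLF6OE were more mixed, with 6 highest in podocytes and 6 in proximal tubule. *Ackr3* was at 0.315 and 1.89 in control and control_AAI and at 3.14 and 5.21 in the hKLF6OE mice, and podocytes ranked first of 23 in both treatments. *Loxl2*, a lysyl oxidase that cross-links collagen, was at 0.485 and 0.446 against 2.19 and 1.71. *Svep1*, a large matrix protein, was at 0.701 and 0.669 against 3.20 and 2.46. *Maf*, a bZIP transcription factor, was at 1.59 and 1.04 against 4.07 and 7.14. *Auts2* was at 19.3 and 22.96 against 28.9 and 36.1. *Celf2*, *Pkig*, *Itfg1* and *Usp20* followed. *Pck1*, an enzyme of glucose synthesis in the proximal tubule, was at 1.61 and 0.743 against 3.55 and 2.22, but the other clusters were higher by medians of 1.00 and 0.79, so its podocyte difference of 0.80 without injury was the smaller. After the change of the other clusters was subtracted, 12 of the 20 and 23 of the 31 remained, a larger part than for AAI. A gene near 0 outside podocytes, such as *Gm3772* or *Lingo2*, has little room to change there, so subtraction alters it little. The part that remains thus depends on levels in the other clusters, and its difference from AAI was not tested.

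**Figure D5:**
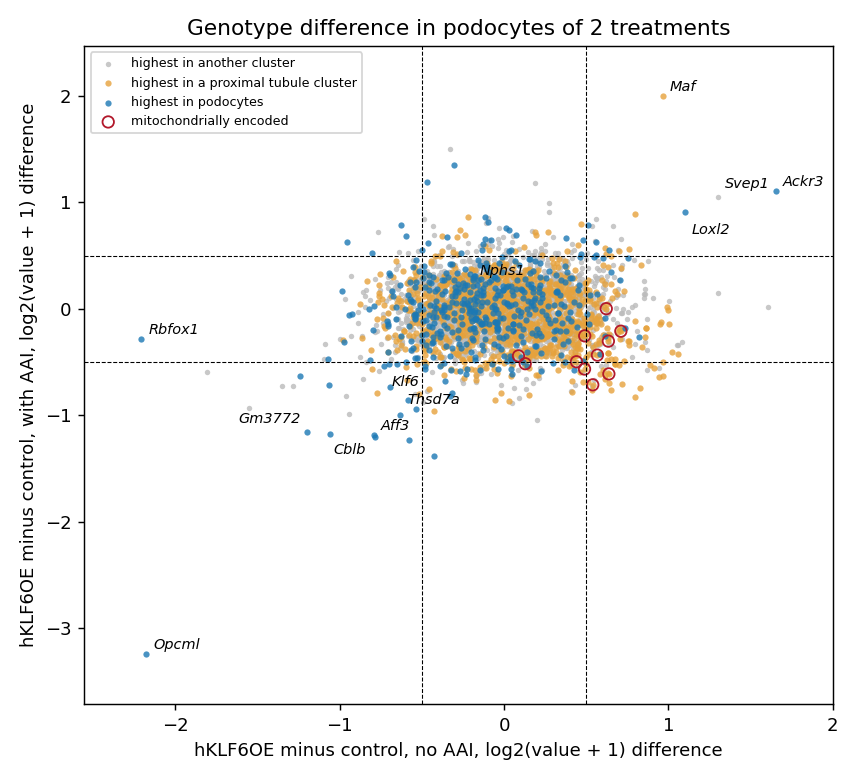
Genotype difference without injury (x axis) against that with AAI (y axis) in podocytes, as differences of log2(value + 1), for the 3524 genes judged in both, colored as for AAI. *Opcml* lies alone at the lower left, *Ackr3*, *Svep1* and *Loxl2* lie at the upper right, and the mitochondrially encoded genes (red rings) have medians of 0.54 without injury and -0.44 with AAI.

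Over all genes judged, 1.45% were counted in the same direction in both treatments, and of the 19 slit diaphragm genes none was, again a list too short to tell apart from that share. After subtraction of the other clusters, *Fat1* was lower in both (-0.67 and -0.63). Without injury 3 of 19 genes were lower in hKLF6OE, *Fat1* (-0.71), *Kirrel* (-0.61) and *Cd2ap* (-0.54), and the list median was -0.26 beside 0.02 for all genes. With AAI, *Ptpro* (-0.79) and *Magi2* (-0.51) were lower and the median was -0.08. *Nphs1* differed by -0.19 and 0.27. *Vegfa* was at 8.66 in the uninjured hKLF6OE mouse and at 15.1 to 17.6 in the other 3, a difference of -0.95 without injury and -0.05 with AAI. As a background, 9.06% of all genes judged were higher and 7.82% lower without injury, and 3.39% and 4.28% with AAI. No list was tested against these shares. Of 40 genes of inherited nephrotic syndrome that passed in each treatment, 2 were higher and 7 lower without injury. With AAI, 1 was higher and 2 lower (medians -0.14 and 0.01). The cytoskeletal list had 1 higher and 2 lower of 26, and 2 higher and 1 lower of 25, with medians of 0.04 and 0.05. The adhesion list had 2 higher and 1 lower of 12, then 1 higher of 13, with medians of -0.12 and 0.12. Of the transcription factors *Klf6* alone was counted in both (medians -0.17 and -0.18), and of the ligands *Thsd7a* alone (medians -0.10 and -0.04). The p53 targets had 1 higher of 11 and 2 higher of 12 and none lower, with medians of 0.03 and 0.04. The immediate early and stress genes had 1 higher and 1 lower of 7, and 2 higher and 1 lower of 12 (medians 0.26 and 0.29), with *Hspa8* in opposite directions. With no minimum value, the medians of all 30 members were 0 and 0.07. Injury genes had 2 higher of 5, and 1 higher and 1 lower of 7 (medians 0.21 and -0.14). With no minimum value, both medians of the 31 injury genes were 0. The genes of AAI uptake had 1 higher member of 3 without injury (medians -0.09 and -0.16). The podocyte markers had none counted without injury, and 1 higher and 2 lower with AAI (medians -0.24 and -0.05). Of the 16 cell cycle genes at most 2 passed the filter in a comparison, and none of these was counted. The proximal tubule markers had 2 higher of 12 without injury and 6 lower of 11 with AAI. The mitochondrially encoded genes had 6 higher of 11 without injury and 4 lower of 11 with AAI. Their medians were 0.54 and -0.44, and so had opposite signs. The proximal tubule marker medians were 0.01 and -0.56. Without injury, 6 of all 12 proximal tubule markers were above 0 and 6 below. These differences were not tested.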

How the data were processed

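Single-nucleus RNA sequencing (10x) of 4 kidneys was used. The signal values were deposited by the authors as average expression per cluster and mouse, with each column summing to 10000. Per the labels and the study's methods, reads were processed with Cell Ranger on mm10 with a pre-mRNA reference, nuclei with under 200 or over 6000 genes or over 10% mitochondrial reads were removed, and Seurat made the clusters. The averaging function is not given in the sources used here, and doublet removal is not described for these data. Names of other clusters follow the order of the authors' marker sheets.

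Of 19632 rows, 23 with date-like names were left out, which leaves 19609, and 19326 matched GENCODE vM21 (GRCm38). Differences used a pseudocount of 1, a minimum of 0.5 and a threshold of 0.5. No statistical test was run. The members and the 22 gene lists were chosen with earlier results of these data known. Named genes were the 25 leading identity genes, the 10 largest higher and 10 lower per pair of comparisons, the 3 largest of each single comparison, and list members. The genes lowest in podocytes, *Plod2*, *Mocs2*, *Wwox*, *Park2*, *Ldhb*, *Mpp1*, *Olfr1033*, *Thsd7a*, *Atp8b1*, *Rab3b*, overlapping genes and genes at the identity limit were named after their values were seen. Some genes that this rule names are not reported here. The calling rules were checked on simulated data with counting noise alone, no spread between mice, and large changes in genes of higher expression. That check does not cover calls at low values or near the threshold. Alternatives were another pseudocount, minimum or threshold, centring, mitochondrially encoded genes left out, and subtraction of the other clusters. Classes of genes by highest cluster, podocyte-low genes, and the counts and medians of gene lists with no minimum were added after seeing the data. Python 3.11.15, numpy 2.4.6, pandas 2.3.3 and matplotlib 3.10.9 were used.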

Additional observations from a re-analysis of the deposited data

Results flagged for a closer look

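*Synpo* and *Spp1* differed by at least 0.5 on the log2(value + 1) scale in opposite directions with AAI in the 2 genotypes. *Synpo*, which encodes the actin-binding protein synaptopodin, was at 19.8 in control and 13.5 in control_AAI (-0.52) and at 15.4 in hKLF6OE and 22.2 in hKLF6OE_AAI (0.50). *Spp1*, which encodes osteopontin, was at 0.904 and 1.85 in control (0.58) and at 3.69 and 2.16 in hKLF6OE (-0.57). With 1 mouse per condition, the difference between the genotypes was not tested. They are among 23 genes of 3573 with such opposite differences.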

How the results depend on the processing

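The counts of genes depend on the settings, and no condition has a spread between mice against which to set them. The values below are the genes counted, higher and lower together. In the order AAI in control, AAI in hKLF6OE, genotype without injury, genotype with AAI, AAI in both genotypes and genotype in both treatments, the counts as reported were 423, 780, 749, 303, 76 and 51. A pseudocount of 0.1 gave 1680, 2168, 2201, 1389, 413 and 295. A minimum value of 2 gave 118, 269, 210, 144, 32 and 23, and the higher share of AAI in hKLF6OE went from 38.7% to 55.02%. A threshold of 0.2 gave 2235, 2664, 2708, 1903, 680 and 495, and a threshold of 1 gave 21, 84, 29, 17, 8 and 5. Subtracting the median of the other clusters gave 466 for AAI in hKLF6OE and 25 for AAI in both genotypes, where the higher share went from 30.3% to 64.0%. No minimum, centring on the median, and leaving out mitochondrially encoded genes kept each of the 6 counts within 1.5 times. The 110 podocyte-high genes became 49 with a threshold of 1 and 330 against the mean of the other clusters, and 118, 115, 122 and 126 without the control, control_AAI, hKLF6OE and hKLF6OE_AAI mouse, a range of 115 to 126. After subtraction of the other clusters, *Ndrg1* with AAI in hKLF6OE went to 0.14, *Gm42397* with AAI to 0.55 and 0.091, *Pck1* between genotypes without injury to -0.20, the median of the p53 targets with AAI to -0.17 in each genotype, and that of the proximal tubule markers in control to 0.057. The cause was not tested. No paired analysis was possible because each condition has 1 mouse.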
